A study of Mus musculus with 20 samples.

Results

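The genes described here are 10 of the circadian clock, Arntl, Npas2, Per1, Per2, Per3, Cry1, Nr1d1, Nr1d2, Dbp and Ciart, out of 49671 genes counted in bulk RNA sequencing of mouse hippocampus. They were taken from a list of names and not by their level or change, and the question put to them was how the activating and repressing limbs of the clock stood at harvest in each mouse. There were 20 libraries, 5 in each of 4 groups of adult male wild-type mice aged 10 to 12 weeks, with 1 hippocampus per library. Control mice had no tumour and received isotype antibody by intraperitoneal injection. ICI mice had no tumour and received the immune checkpoint inhibitors anti-CTLA-4 (1 mg a dose, 3 doses a week) and anti-PD-1 (200 µg a dose, 2 doses a week). Melanoma mice carried tumours from the syngeneic mouse melanoma line D4M-3A.UV2, 500000 cells given intradermally on both sides, and received isotype antibody. Melanoma plus ICI mice carried the same tumours and received the same pair of checkpoint antibodies, for 3 weeks. The number of weeks in ICI mice is not given in the sources used here. Tumours grew for 1 week before antibodies were begun, and all mice were killed 72 hours after the last injection. The tumours lay in the skin, so the hippocampus of a tumour-bearing mouse is distant tissue and not tumour tissue. The hour of day at harvest, the light schedule and the order of dissection are not given in the sources used here.

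In most mammalian cells ARNTL pairs with CLOCK, or in the forebrain with its relative NPAS2, and the pair switches on genes that carry the DNA element called the E-box. Among those genes are the Per and Cry repressors, which block the pair, and Nr1d1 and Nr1d2, nuclear receptors that repress Arntl. Transcripts of the Per genes, of Nr1d1 and Nr1d2 and of the output gene Dbp run out of phase with Arntl over the day. DBP in turn acts through the D-box, an element found in Per genes, and CIART, also called CHRONO, is a further repressor of the ARNTL and CLOCK pair. In nocturnal rodents Arntl transcripts are high around the change from night to day in most tissues, and Dbp, Nr1d1 and Per transcripts are high during the day and at dusk.

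No clock gene differed between groups after adjustment for all genes tested. In melanoma mice the mean of Arntl was the lowest of the 4 groups, and those of the other genes except Cry1 were the highest. In the melanoma plus ICI group replicate 3 was the highest of all 20 libraries in 8 of the 10 genes. With that library set aside, which was done after its values were seen, the other 4 were below the whole melanoma range in 5 genes, Per1, Per2, Per3, Dbp and Ciart, as they were in 3.01% of all genes tested. Between libraries, Dbp, Ciart, Cry1 and Nr1d2 moved together. Without that 1 library no slope of these genes on Dbp passed the adjusted threshold, while Pearson's r with Dbp was 0.81 for Ciart, 0.83 for Cry1 and 0.61 for Nr1d2. These r were taken after group means over all 20 libraries were removed, so the library left out still entered through the mean of its group.

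The start regions of 4 of the genes are printed here because they hold letters of the elements through which the clock acts on itself, and they were chosen for that. Each is taken from the 250 bases upstream of a RefSeq start site on GRCm38.p6, without the bases nearest the start site that lie in annotated exons of the gene (23 for Ciart, 10 for Cry1, 1 for Per1 and 0 for Per3), written 5′ to 3′ on the strand of the gene. Ciart and Cry1 lie on the minus strand, as does Per3, and Per1 lies on the plus strand. Capitals mark the E-box CACGTG, which reads the same on both strands, and the D-box TTATGTAA in Per3. In Cry1 they also mark AACGTG, which on the other strand reads as the variant E-box CACGTT.
Ciart, chr3:95882252-95882478: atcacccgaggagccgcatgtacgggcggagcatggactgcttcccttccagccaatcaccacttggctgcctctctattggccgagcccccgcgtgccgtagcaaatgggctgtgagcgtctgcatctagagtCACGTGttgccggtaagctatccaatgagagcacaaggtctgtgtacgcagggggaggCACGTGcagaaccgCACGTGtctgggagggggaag
Cry1, chr10:85185065-85185304: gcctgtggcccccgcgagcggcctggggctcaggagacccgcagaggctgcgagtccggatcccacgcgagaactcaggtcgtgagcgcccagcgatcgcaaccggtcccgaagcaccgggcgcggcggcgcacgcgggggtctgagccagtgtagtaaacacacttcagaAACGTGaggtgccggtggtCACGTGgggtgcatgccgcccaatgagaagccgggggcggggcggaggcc
Per1, chr11:69098699-69098947: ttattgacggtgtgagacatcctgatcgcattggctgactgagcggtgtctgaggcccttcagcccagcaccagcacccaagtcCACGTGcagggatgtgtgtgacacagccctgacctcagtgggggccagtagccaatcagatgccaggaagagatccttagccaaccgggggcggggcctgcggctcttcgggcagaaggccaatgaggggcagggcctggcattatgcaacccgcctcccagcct
Per3, chr4:151044666-151044915: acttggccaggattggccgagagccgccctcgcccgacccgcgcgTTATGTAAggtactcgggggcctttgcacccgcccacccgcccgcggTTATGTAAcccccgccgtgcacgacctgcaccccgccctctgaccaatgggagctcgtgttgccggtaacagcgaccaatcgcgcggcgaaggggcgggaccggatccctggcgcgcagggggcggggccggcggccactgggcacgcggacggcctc
Ciart held 3 CACGTG elements, beginning 116, 58 and 44 bases before the start site (counted with the bases left off), Cry1 held 1 at 60 bases and Per1 held 1 at 166 bases. The search covered the whole 250 bases upstream of each start site, exons included, in 9 clock genes with a RefSeq window, of which Arntl and Per1 have 2 windows each. CACGTG occurred in 3 of the 9 and in 6.86% of 27025 genes with windows of that length. Per3 held 2 D-boxes, at 205 and 158 bases, and TTATGTAA, searched on both strands, occurred in 0.977% of genes. Nr1d1 held AACGTG at 28 bases and CACATG, the other strand of the variant E-box CATGTG, at 226 bases, and those variants occurred in 4.5% and 13.8% of genes. CATGTG also occurred in Per1, 64 bases before its other start site, whose window is not printed. Of the other elements searched on both strands, AGGTCA (15.8% of genes) was found in Per1 and Nr1d2 and TGACG (19.8%) in Per1 and Cry1. TTACGTAA (0.118%), TAGGTCA (2.55%), which contains AGGTCA, and TGACGTCA (1.77%), which contains TGACG, were found in none of the 9. The windows of Arntl, Npas2 and Dbp held none of the elements searched. These are matches of letters in a short window. They describe the sequence and say nothing of binding.

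The clock genes were all well counted. Library totals ran from 21990624 to 25735149 counts, and a clock gene had between 235 and 6437 counts in a library. All 10 passed the filter on low counts, with 18427 genes tested. Libraries also differed in what tissue they held. Marker genes of the dentate gyrus and of fields CA1 and CA3, the parts of the hippocampus, were present in all groups, and none of these markers was at 0 in a group. The summed level of 6 dentate gyrus markers ran from 59.3 to 201 CPM in melanoma plus ICI mice, against 105 to 688 CPM in controls. The summed level of 9 markers of striatum, a neighbouring region, ran from 217 to 1409 CPM in melanoma mice, from 168 to 784 CPM in melanoma plus ICI mice and from 190.5 to 245 CPM in controls. That of 10 choroid plexus markers varied widely within every group. It ran from 35.2 to 6285 CPM in controls, 22.6 to 2245 in ICI, 45.6 to 3735 in melanoma and 69.8 to 6680 in melanoma plus ICI mice. In melanoma plus ICI replicate 3 the mean log2 CPM of 6 neocortex markers was the highest of 20 libraries, at 5.97, and those of field CA1 (3.04) and dentate gyrus (2.47) were the lowest. In bulk tissue, fewer cells of a type and less RNA per cell cannot be told apart.

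Levels between genes are compared as CPM per kilobase of exon, where CPM is counts per 1000000 after TMM scaling. Over 20 libraries Nr1d1 was the highest, at 42.1 ± 4.42 (SD) CPM per kilobase, and Per1 followed at 24.8 ± 7.47 (SD). Dbp stood at 18.6 ± 3.43 (SD) and Nr1d2 at 17.7 ± 2.92 (SD). The next were Per2 at 10 ± 2.85, Ciart at 7.49 ± 2.45, Npas2 at 6.83 ± 1.92, Per3 at 6.75 ± 1.63, Cry1 at 4.84 ± 0.881 and Arntl at 4.0 ± 0.512 CPM per kilobase. Of the 9 steps in this order, only those from Nr1d1 to Per1 and from Nr1d2 to Per2 exceeded the summed SDs of the genes on either side, and both held in all 20 libraries. Neighbours such as Dbp and Nr1d2 (in this order in 13 of 20 libraries) or Npas2 and Per3 (11 of 20) did not differ beyond their spread.

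The genes also differed in how much they varied between mice. The ratio of the highest to the lowest library was 4.12 for Per2, 3.62 for Per1, 3.05 for Ciart and 2.82 for Npas2. It was 1.48 for Nr1d1 and 1.5 for Arntl. Melanoma plus ICI replicate 3 was the highest library for Per2, Per1, Ciart and Nr1d1, and without it their ratios were 3.18, 2.95, 2.21 and 1.4. Set against genes within 0.5 log2 units of the same mean level, the SD of log2 CPM of Per2 stood at percentile 95.2, that of Per1 at 94.9 and that of Npas2 at 92.7. Nr1d1 stood at percentile 34.6 and Arntl at 49.3. Without melanoma plus ICI replicate 3 these percentiles were 95.4 for Per2, 94 for Per1, 93.7 for Npas2, 30.1 for Nr1d1 and 49 for Arntl. Nr1d1 and Arntl, which act on each other in the loop, were the steadiest of the 10, and the Per genes were among the most variable genes of their level.

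**Figure D1:**
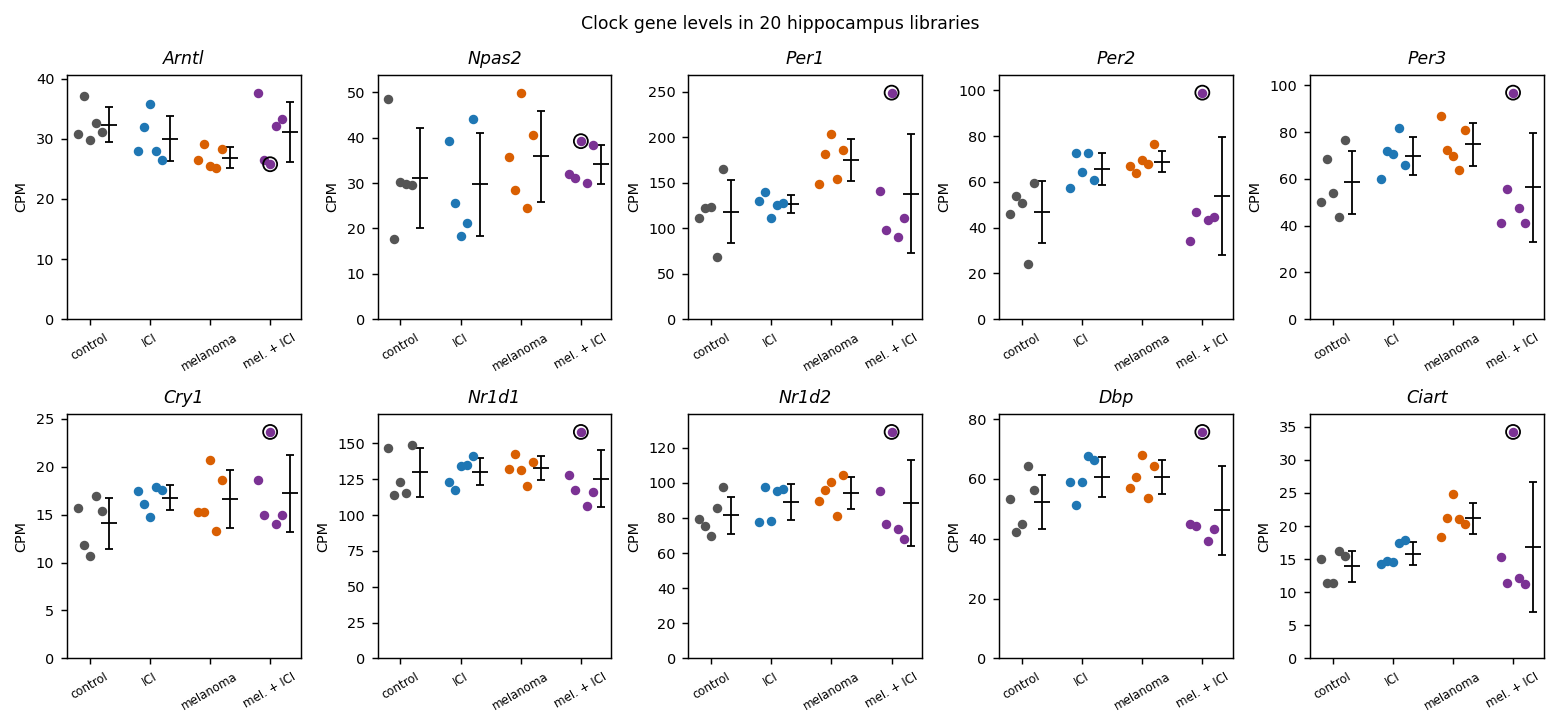
Level of each clock gene (CPM, linear axis from 0) in 5 libraries of each group, with 1 point per library, replicates 1 to 5 from left to right, and the group mean with its SD at the right of each group. The ringed point is melanoma plus ICI replicate 3, which is the highest point for all genes but Arntl and Npas2.

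Arntl (ENSMUSG00000055116, chr7:113207465-113314126, GRCm38) encodes the partner common to the activating pairs. It stood at 30.9, 37.2, 29.8, 32.6 and 31.2 CPM in control replicates 1 to 5 and at 27.9, 31.9, 35.7, 28 and 26.5 CPM in ICI. In melanoma it stood at 26.4, 29.1, 25.5, 25.2 and 28.3 CPM, and in melanoma plus ICI at 37.7, 26.6, 25.8, 32.2 and 33.3 CPM. Every melanoma value was below every control value, and the ICI and melanoma plus ICI values overlapped both. The mean ± SD (n = 5 a group) was 32.3 ± 2.88 CPM for control mice and 30 ± 3.77 for ICI mice. It was 26.9 ± 1.72 CPM for melanoma mice and 31.1 ± 4.96 for melanoma plus ICI mice.

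Npas2 (ENSMUSG00000026077, chr1:39193731-39363236) encodes a forebrain partner of ARNTL. It stood at 48.6, 17.7, 30.2, 29.8 and 29.5 CPM in the 5 controls and 39.2, 25.7, 18.4, 21.2 and 44.1 CPM in ICI mice. Melanoma libraries held 35.8, 28.6, 49.9, 24.4 and 40.7 CPM, and melanoma plus ICI libraries 31.9, 31.2, 39.2, 30 and 38.3. High and low libraries occurred in control, ICI and melanoma alike, and all 4 groups overlapped. Npas2 did not follow Arntl, and its highest and lowest libraries, melanoma replicate 3 and control replicate 2, were among the lowest and the highest in dentate gyrus score (2.95 and 6.31).

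Per1 (ENSMUSG00000020893, chr11:69095217-69109960), a repressor that is also induced by light and glucocorticoids, was counted at 111, 122, 123, 68.8 and 166 CPM in control and 129.6, 139, 111.7, 125 and 128 in ICI. Melanoma libraries held 148, 182, 203, 154 and 187 CPM, and melanoma plus ICI libraries held 141, 97.7, 249, 90 and 111.6. Control and melanoma values overlapped, as control replicate 5 reached into the melanoma range. Control replicate 4 was the lowest of all libraries and melanoma plus ICI replicate 3 the highest.

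Per2 (ENSMUSG00000055866, chr1:91415982-91459324), a core repressor of the loop, stood at 46, 53.8, 50.6, 24 and 59.7 CPM in control and 57.4, 72.6, 64.4, 72.7 and 60.7 in ICI. It stood at 67, 63.9, 69.4, 67.7 and 76.4 CPM in melanoma and 34.1, 47.1, 99.1, 43.4 and 44.8 in melanoma plus ICI. All melanoma values were above all control values. In melanoma plus ICI, 4 of 5 libraries were below every ICI and melanoma library, and the remaining one was above them all.

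Per3 (ENSMUSG00000028957, chr4:151003652-151044665), the third member of the family, also had its highest mean in melanoma. It stood at 50.2, 68.3, 54, 43.5 and 76.4 CPM in the 5 controls and 59.7, 71.7, 70.5, 81.7 and 65.9 CPM in ICI mice. Melanoma libraries held 86.7, 72.5, 69.8, 63.7 and 80.8 CPM, and melanoma plus ICI libraries 41.1, 55.5, 96.8, 47.6 and 40.9. Control libraries overlapped both ICI and melanoma, and 4 of 5 melanoma plus ICI libraries were below every ICI and melanoma library.

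Cry1 (ENSMUSG00000020038, chr10:85131700-85185064), the partner through which PER proteins repress, stood at 15.6, 11.8, 10.7, 16.9 and 15.3 CPM in control and 17.5, 16.1, 14.8, 17.8 and 17.5 in ICI. In melanoma it stood at 15.3, 15.3, 20.7, 13.2 and 18.6 CPM and in melanoma plus ICI at 18.6, 15, 23.6, 14 and 14.9. Control replicates 2 and 3 were the lowest of 20 libraries, and the groups otherwise overlapped.

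Nr1d1 (ENSMUSG00000020889, chr11:98767932-98775333), which encodes the receptor REV-ERBα, was nearly level across groups, with a mean ± SD (n = 5) of 129.8 ± 17 CPM for controls, 130.3 ± 9.6 for ICI mice, 133 ± 8.25 for melanoma mice and 125 ± 19.8 for melanoma plus ICI mice. Its libraries ranged from 106.5 to 158 CPM. Nr1d1 shares 263 bp of exon, 8.55% of its exonic length, with Thra on the opposite strand, which had 709% as many counts, so with strand use not given in the sources used here its level is uncertain. Nr1d2 (ENSMUSG00000021775, chr14:18204054-18239127), encoding REV-ERBβ, stood at 79.6, 75.4, 69.8, 85.6 and 97.4 CPM in control and 77.8, 97.5, 78.4, 95.2 and 96.2 in ICI. It stood at 89.8, 96, 100.2, 81.2 and 104.4 CPM in melanoma and 95.1, 76.3, 129, 73.8 and 68.2 in melanoma plus ICI, and all groups overlapped.

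Dbp (ENSMUSG00000059824, chr7:45705088-45710203), an output gene whose protein acts on D-boxes, stood at 53.5, 42.3, 45, 64.3 and 56.5 CPM in control and 58.9, 51.3, 59, 67.5 and 66.5 in ICI. It stood at 57, 60.7, 68, 53.6 and 64.5 CPM in melanoma and 45, 44.4, 75.7, 39.3 and 43.1 in melanoma plus ICI. As with Per2 and Per3, 4 of the melanoma plus ICI libraries were below every ICI and melanoma library, which for the libraries other than replicate 3 held in 0.662% of all genes. Replicate 3 was above them, so the groups of 5 overlapped. Dbp shares 539 bp, 18% of its exonic length, with Sphk2 on the opposite strand, which had 60.4% as many counts, so its level too is uncertain. Of the other genes that overlap a clock gene in the annotation, Gm45355 shares 33 bp of exon with Arntl and had 0.283% as many counts. Camta1 with Per3, C920021L13Rik with Ciart, and Gm20428 and Gm3617 with Npas2 share 0 bp of exon.

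Ciart (ENSMUSG00000038550, chr3:95878503-95882251), the repressor with 3 E-boxes printed above, stood at 15, 11.4, 11.3, 16.3 and 15.4 CPM in control and 14.3, 14.7, 14.6, 17.4 and 17.9 in ICI. Melanoma libraries held 18.3, 21.2, 24.8, 21.1 and 20.3 CPM, above every control library. Melanoma plus ICI libraries held 15.4, 11.4, 34.2, 12.2 and 11.2 CPM, with 4 of them below all melanoma libraries and replicate 3 at the top.

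The effect of each treatment was read from 1 model of all genes and 20 libraries, edgeR's quasi-likelihood test, with p-values adjusted by Benjamini-Hochberg over 18427 genes and a threshold of 0.05. In melanoma against control, the tumour alone, 9 of 10 clock genes had a higher mean and Arntl a lower one, with a median log2 fold change of 0.23 beside -0.01 over all genes tested. None passed the adjusted threshold, and 0% of all genes did. DESeq2 and limma voom with quality weights also called 0 clock genes in every comparison of groups. At an unadjusted p under 0.05, 3 clock genes were higher (2.7% of all genes were) and 1 was lower (2.41% of all genes). With 1 library left out these 4 became 2 to 5, with 2 without control replicate 2 or control replicate 4 and 5 without control replicate 5 or melanoma plus ICI replicate 3. Ciart was 0.61 ± 0.24 (SE) on the log2 scale (edgeR, unadjusted p = 0.0189, adjusted p = 0.877). Per1 was 0.56 ± 0.23 (SE) (unadjusted p = 0.0251), Per2 0.56 ± 0.23 (SE) (unadjusted p = 0.0279) and Arntl -0.27 ± 0.10 (SE) (unadjusted p = 0.0193) in the edgeR fit, with the same adjusted p. Groups without overlap were found for Per2 and Ciart, both higher (0.554% of all genes were higher without overlap), and for Arntl, lower (0.483%). The striatum score ran from 2.56 to 6.4 in melanoma and from 2.69 to 3.29 in control, and its part in these differences was not tested. Over 28 alternative settings the adjusted p for Ciart went from 0.0777 to 1.

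The ICI group was set against the same control libraries. In ICI against control 8 of 10 clock genes had a higher mean, with a median of 0.16 beside -0.01 over all genes. The smallest p was that of Per2, at 0.49 ± 0.23 (SE) on the log2 scale (edgeR, unadjusted p = 0.0519, adjusted p = 0.766). No clock gene reached an unadjusted p under 0.05, where 5.23% of all genes did, and no clock gene had groups without overlap (0.418% of all genes were higher and 0.467% lower without overlap).

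Adding ICI to the tumour gave lower means in 8 of 10 clock genes. In melanoma plus ICI against melanoma the median was -0.19 beside 0.02 over all genes, Per3 had the smallest p at -0.41 ± 0.20 (SE) (edgeR, unadjusted p = 0.0555, adjusted p = 0.825), and Arntl was higher by 0.21 ± 0.10 (SE). No clock gene was at an unadjusted p under 0.05 (5.5% of all genes were, 2.87% lower), and none had groups without overlap (0.635% of all genes higher, 0.901% lower). Without melanoma plus ICI replicate 3, 7 clock genes were at an unadjusted p under 0.05 (9.15% of all genes were) and Ciart was among the 0.0645% of genes past the adjusted threshold, at -0.74 ± 0.13 (SE) with an edgeR adjusted p of 0.0396. Against control, melanoma plus ICI mice had a median of 0.12 beside 0.00 over all genes and Cry1 had the smallest p, at 0.29 ± 0.16 (SE) (edgeR, unadjusted p = 0.0771, adjusted p = 1.000), where 0 were at an unadjusted p under 0.05 (2.38% of all genes) and none had groups without overlap (0.157% higher, 0.147% lower). Against ICI, Dbp had the smallest p, at -0.29 ± 0.15 (SE) (edgeR, unadjusted p = 0.0686, adjusted p = 0.580), where 0 were at an unadjusted p under 0.05 (8.63% of all genes) and none had groups without overlap (0.586% higher, 0.863% lower). When melanoma plus ICI replicate 3 was left out, Dbp, Per2, Per3 and Ciart were at an unadjusted p under 0.05 against ICI (7.93% of all genes were), and Dbp and Per3 against control (2.59%).

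**Figure D2:**
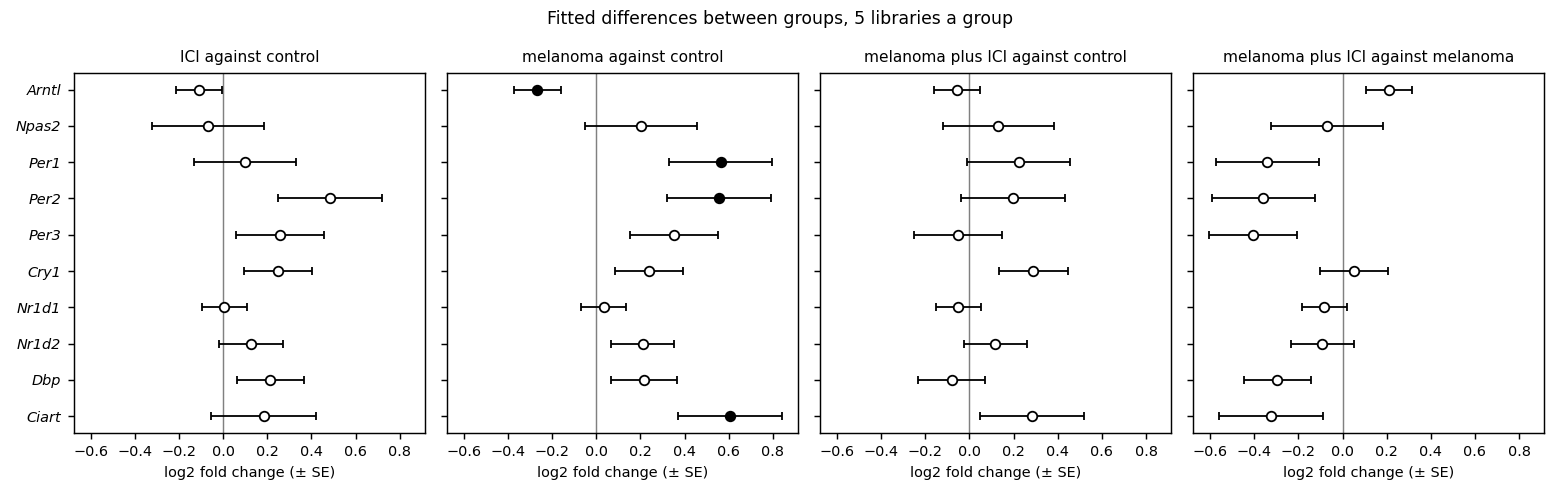
Fitted log2 fold change of each clock gene (horizontal axis, bars ± 1 SE) in 4 comparisons of 5 libraries with 5. Filled points have an unadjusted p under 0.05, and the filled points are Arntl, Per1, Per2 and Ciart in melanoma against control.

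The interaction asks whether ICI acted differently with and without a tumour, and it uses the same libraries as the comparisons above. In this test 4 clock genes were at an unadjusted p under 0.05, 3 lower and 1 higher (10.3% of all genes were, 4.28% lower and 5.99% higher), and none passed the adjusted threshold (0% of all genes). Per2 was -0.84 ± 0.33 (SE) (edgeR, unadjusted p = 0.0192, adjusted p = 0.484), Per3 -0.66 ± 0.28 (SE), Dbp -0.51 ± 0.21 (SE) and Arntl 0.32 ± 0.15 (SE), all at adjusted p = 0.484 in the edgeR fit. With 1 library left out, the number of clock genes at an unadjusted p under 0.05 ran from 1 to 7. The 7 came without melanoma plus ICI replicate 3 (12.3% of all genes), and Per2 alone was left when ICI replicate 4, or replicate 4 or 5 of melanoma plus ICI, was dropped. The median of the 10 genes was -0.33 beside 0.02 over all genes. In the test for any difference among the 4 groups the smallest p was that of Per2 (edgeR, unadjusted p = 0.0980, adjusted p = 0.890), and 0 clock genes were at an unadjusted p under 0.05, where 4.78% of all genes were. That count was 6 without melanoma plus ICI replicate 3 (5.79% of all genes).

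The calls changed under a pair of settings that were added after the values had been seen. One took the neocortex and field CA1 scores as covariates, picked because clock genes had been seen to track them. In it Ciart passed the adjusted threshold in melanoma plus ICI against melanoma (-0.79 ± 0.13 (SE), edgeR adjusted p = 0.0385), as 0.0543% of all genes did, and Ciart and Dbp passed it in the interaction (0.0597% of all genes). The other left out 3 libraries, control replicate 4 and melanoma plus ICI replicates 1 and 3. Melanoma plus ICI replicate 3 was among them partly for its high clock gene values, so this choice is not independent of the outcome. With those 3 left out, Per1, Per2 and Ciart passed the adjusted threshold in melanoma plus ICI against melanoma (0.239% of all genes did), and Per2, Ciart and Dbp in the interaction (0.143%). In neither setting did a clock gene pass in melanoma against control or in ICI against control. These calls describe what the choice of libraries and covariates does, and the count for the groups as designed is 0.

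The relation of the limbs was read within each library. Dbp exceeded Arntl in every library, with a ratio of their CPM per kilobase from 2.86 in control replicate 2 to 7.38 in melanoma plus ICI replicate 3. The mean ratio ± SD (n = 5) was 4.1 ± 0.81 for controls, 5.17 ± 1.05 for ICI mice, 5.69 ± 0.59 for melanoma mice and 4.18 ± 1.85 for melanoma plus ICI mice. Melanoma ratios, from 5.24 to 6.7, were all above the control ratios, from 2.86 to 4.96, while 4 of the melanoma plus ICI ratios lay between 3 and 4.2. Arntl alone already separated melanoma from control, while Dbp overlapped, and the share of gene pairs with such a separation was not computed. The ratio of Per2 to Arntl was above 1 in all libraries but control replicate 4, where it was 0.95. The ratio of Ciart to Arntl ran from 1.02 to 4.42, with a mean ± SD (n = 5) of 1.44 ± 0.29 for controls, 1.78 ± 0.37 for ICI mice, 2.63 ± 0.38 for melanoma mice and 1.92 ± 1.4 for melanoma plus ICI mice. The mean log2 CPM per kilobase of Per1, Per2, Per3, Nr1d1, Nr1d2, Dbp and Ciart exceeded that of Arntl and Npas2 in all 20 libraries, by 0.93 to 2.14. Gene by gene, Per1, Nr1d1, Nr1d2 and Dbp were above both Arntl and Npas2 in all 20 libraries. Ciart was above Arntl in 20 and above Npas2 in 13, Per2 in 19 and 16, and Per3 in 18 and 9. Cry1, which is not in that mean, was above Arntl in 16 and above Npas2 in 2. With no library of known hour in the series, these ratios give no clock time, and the part of harvest hour in their spread was not tested.

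**Figure D3:**
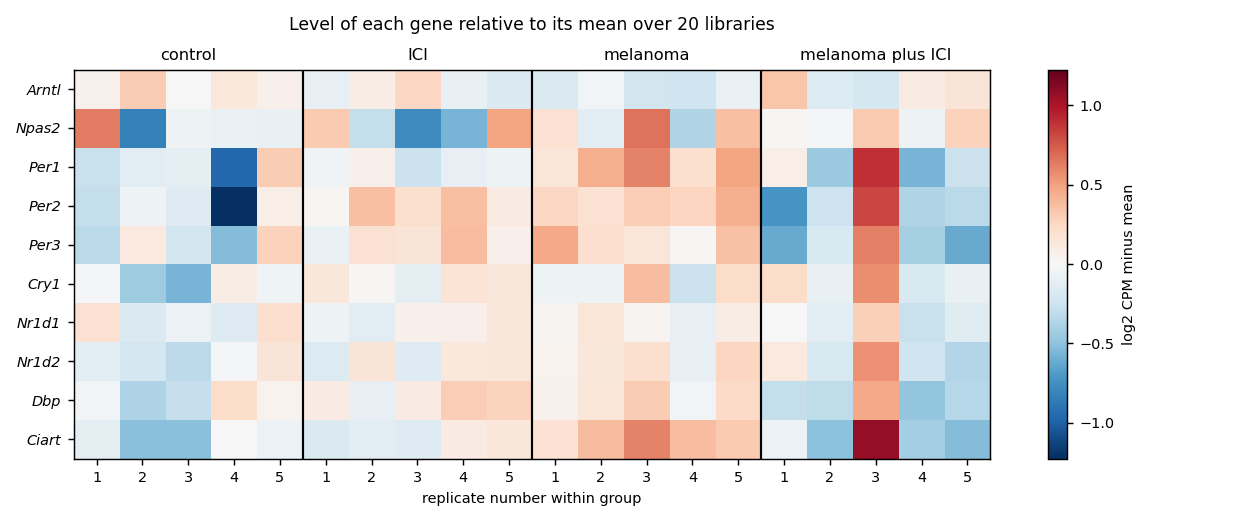
Level of each clock gene in each library as log2 CPM minus the mean of that gene over 20 libraries (colour, red higher and blue lower), with libraries by group and replicate number. Melanoma plus ICI replicate 3 is red in all rows but Arntl, and control replicate 4 is the bluest cell of Per1 and Per2.

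Whether the clock genes vary together between mice was asked with group means removed. Here and below, each r without certain libraries still used the group means of all 20 libraries, so those left out still entered through their group mean. Among the 8 genes other than Arntl and Npas2, all 28 pairs had a positive Pearson's r over 20 libraries, with a median of 0.66 and a range of 0.14 to 0.90. Without melanoma plus ICI replicate 3, 24 of 28 were positive and the median was 0.46. Arntl had a negative r with all 9 other genes, from -0.47 to -0.21, and with 7 of 9 without that library. The lowest was with Npas2, a gene of the activating limb (Pearson's r = -0.47, permutation p = 0.0276). Dbp came next (Pearson's r = -0.46, permutation p = 0.107), and the remaining genes had larger permutation p. In all, 45 pairs were computed.

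Of these pairs, the highest r belonged to Dbp with Ciart, Per2 with Per3 and Dbp with Cry1. Dbp and Ciart were the closest pair (Pearson's r = 0.90, permutation p = 0.000120; Spearman's rho = 0.84, permutation p = 0.000110), where 1e-05 is the smallest p that 100000 permutations can give. Their r was 0.78 without the 2 libraries farthest in Dbp, control replicate 4 and melanoma plus ICI replicate 3, and 0.81 without the latter alone. Dbp and Cry1 were similarly close (Pearson's r = 0.86, permutation p = 4.00e-05; Spearman's rho = 0.84, permutation p = 9.00e-05), with 0.80 without the same 2 libraries. Per2 and Per3 came between them (Pearson's r = 0.87, permutation p = 3.00e-05; Spearman's rho = 0.76, permutation p = 0.000190), with 0.77 without control replicate 4 and melanoma plus ICI replicate 3. The 6 pairs of Per2 or Per3 with Dbp, Ciart or Cry1 had r from 0.14 to 0.54 over 20 libraries, and from -0.25 to 0.01 without melanoma plus ICI replicate 3. Other genes joined both sides: Nr1d2 had r of 0.86 with Ciart and 0.63 with Per3, and Per1 had 0.80 with Per2 and 0.63 with Ciart, which were 0.75, 0.35, 0.66 and 0.27 without that library. These correlations are between genes of the same libraries, which share tissue content.

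**Figure D4:**
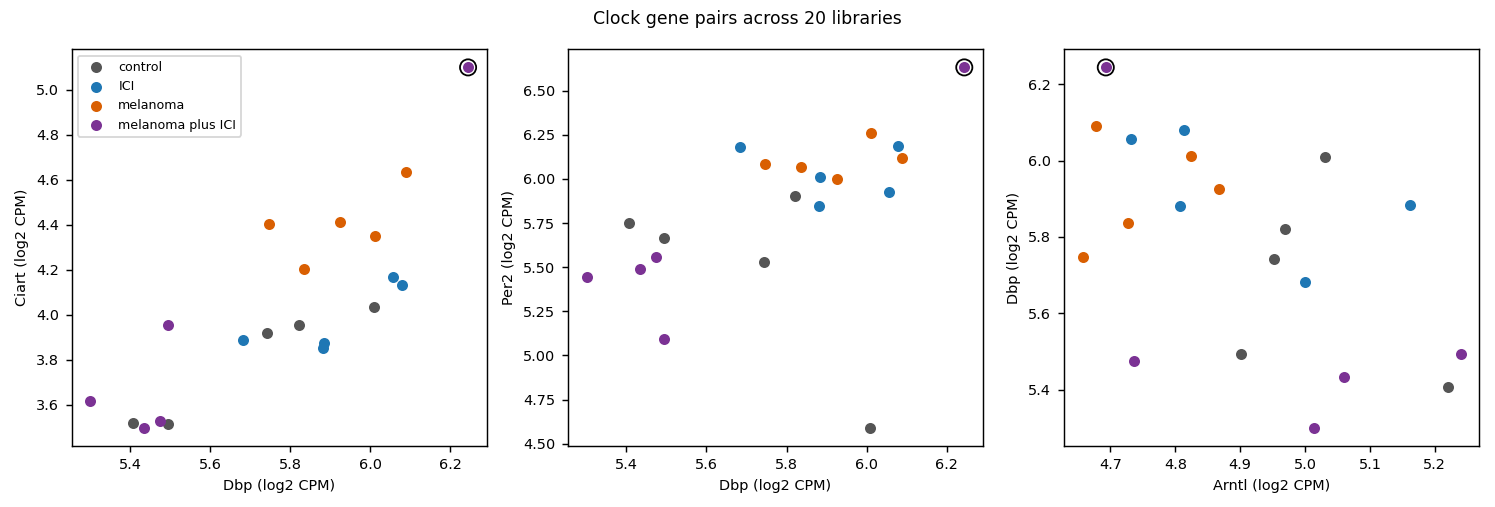
Levels of 3 pairs of clock genes in log2 CPM, with 1 point per library coloured by group and melanoma plus ICI replicate 3 ringed. Dbp and Ciart lie along a line, and Per2 has 1 control library far below the others. In these values, with group means not removed, libraries high in Dbp tend to be low in Arntl. With group means removed that pair had Pearson's r = -0.46 (permutation p = 0.107), and -0.28 without the ringed library.

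In the model of all genes with the group and the Dbp level of each library, 427 genes (2.32% of 18426) had a slope past the adjusted threshold, and 3 of the 9 other clock genes did, all positive (1.02% of genes were called with a positive slope). A slope of 1 means a change as large as that of Dbp on the log2 scale. It was 1.39 ± 0.16 (SE) for Ciart (edgeR adjusted p = 0.00140), 0.88 ± 0.15 (SE) for Cry1 (adjusted p = 0.00617) and 0.73 ± 0.15 (SE) for Nr1d2 (adjusted p = 0.0184), and Nr1d1 followed at 0.47 ± 0.12 (SE) (adjusted p = 0.0523). Ciart had the smallest p of all genes. Per1 at 0.82 ± 0.30 (SE) and Per3 at 0.67 ± 0.26 (SE) were also at an unadjusted p under 0.05, which makes 6 of 9 with a positive slope (7.96% of all genes). The calls changed with single libraries. Without melanoma plus ICI replicate 3, 1 gene (0.00538% of genes) and 0 clock genes passed, with Ciart at 0.89 ± 0.21 (SE) (edgeR adjusted p = 0.0879), Cry1 at 1.06 ± 0.22 (SE) and Nr1d2 at 0.55 ± 0.23 (SE). The slope of Cry1 was thus larger than over 20 libraries and those of Ciart and Nr1d2 smaller, and the slopes of Per1 and Per3 turned negative. Without control replicate 4, 852 genes (4.58%) and 7 clock genes passed. With the neocortex and field CA1 scores as covariates no gene passed (0% of genes), and the slope of Ciart was 0.85 ± 0.27 (SE). With the Arntl level in place of Dbp, all 9 slopes were negative, with a median of -0.75 beside -0.01 over all genes, and none passed the adjusted threshold (0% of all genes). Dbp at -0.75 ± 0.32 (SE), Ciart at -1.15 ± 0.50 (SE) and Npas2 at -1.31 ± 0.57 (SE) were at an unadjusted p under 0.05 (4.34% of all genes were, with a negative slope), each with an edgeR adjusted p of 0.542. The slopes of Ciart and Dbp too leaned on melanoma plus ICI replicate 3. Without it 7 of the 9 slopes were negative, the median was -0.05, and Ciart stood at -0.07 ± 0.35 (SE) and Dbp at -0.26 ± 0.29 (SE). Npas2 did not lean on it, with a Pearson's r with Arntl of -0.47 both with and without that library. Without that library Npas2 was the 1 clock gene at an unadjusted p under 0.05.

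Other genes of the clock gave no calls between groups. Of 21 further clock genes, among them Clock, Cry2, the Ror genes and the D-box factors Tef and Hlf, 0 passed the adjusted threshold in any comparison of groups and 0 were at an unadjusted p under 0.05 in the test for any difference (4.78% of all genes were). At an unadjusted p under 0.05 there were 3 in melanoma plus ICI against ICI (8.63% of all genes), 3 in the interaction (10.3%), 1 in melanoma plus ICI against control (2.38%) and 0 in the other comparisons of groups. The smallest p for any difference was that of Tef, a relative of Dbp, with a mean ± SD (n = 5) of 367 ± 24.3 CPM for controls, 409.8 ± 13.9 for ICI mice, 412 ± 22.9 for melanoma mice and 372 ± 47.8 for melanoma plus ICI mice. On the Dbp level, 4 of these 21 had a slope past the adjusted threshold, all positive (1.02% of all genes). They were Hlf, a further D-box factor, at 0.99 ± 0.23 (SE), Rora, an activator of Arntl, at 1.161 ± 0.293 (SE), Csnk1e, a kinase of PER proteins, at 0.67 ± 0.17 (SE), and Bhlhe41, an E-box repressor, at 0.54 ± 0.14 (SE). Their edgeR adjusted p-values were 0.0291, 0.0431, 0.0464 and 0.0499, and with only 1 gene past the threshold without melanoma plus ICI replicate 3 they carry the same limit.

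Per1 and Per2 also respond to hormones, to neuronal activity and to temperature, so genes of those responses were read beside them. None of them passed the adjusted threshold in a comparison of groups. All 13 glucocorticoid-responsive genes had a higher mean in melanoma than in control, with a median log2 fold change of 0.66, and 8 were at an unadjusted p under 0.05 (2.7% of all genes were, in that direction). In melanoma plus ICI against melanoma all 13 had a lower mean, with a median of -0.47, and 8 were at an unadjusted p under 0.05 (2.87% of all genes were, in that direction). The smallest p for any difference was that of Sult1a1, a sulfotransferase, with a mean ± SD (n = 5) of 6.8 ± 0.91 CPM for controls, 6.6 ± 0.98 for ICI mice, 10.8 ± 1.49 for melanoma mice and 7.68 ± 2.51 for melanoma plus ICI mice. Of 13 immediate early genes, 11 had a higher mean in melanoma than in control and 1 of 13 a higher mean in ICI than in control. In melanoma plus ICI against ICI, which shares the ICI libraries, all 13 had a higher mean and 6 were at an unadjusted p under 0.05 (4.12% of all genes were, in that direction). Fosb, a Fos family factor induced by activity, had 0.87 ± 0.31 (SE) in melanoma against control (edgeR adjusted p = 0.817). Of 7 temperature-responsive genes 6 had a higher mean in melanoma than in control, and the heat shock gene Hspa1b had 0.91 ± 0.22 (SE) (edgeR adjusted p = 0.642). On the Dbp level Tsc22d3, which encodes the glucocorticoid-induced protein GILZ, had a slope of 1.22 ± 0.24 (SE) and Sult1a1 one of 0.81 ± 0.19 (SE), with edgeR adjusted p-values of 0.0160 and 0.0362. Neither passed without melanoma plus ICI replicate 3, and 2.32% of all genes had a called slope over 20 libraries. The part of these responses in the clock gene values was not tested.

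Clock genes also moved with markers of tissue content. The mean log2 CPM of 19 lists was set against each clock gene with group means removed, giving 190 relations, of which 21 had an adjusted permutation p under 0.05. Besides tissue markers, the lists included the further clock genes above (here the other clock genes). They also included the immediate early, glucocorticoid-responsive and temperature-responsive genes, so the 190 relations are not all with tissue content. Npas2 was lower where field CA3 markers were higher (Pearson's r = -0.85, permutation p = 1.00e-05, adjusted p = 0.00190; Spearman's rho = -0.83, permutation p = 0.000240), and r was -0.77 without the 2 libraries farthest in those markers. Cry1 was higher where neocortex markers were higher (Pearson's r = 0.84, permutation p = 0.000250, adjusted p = 0.00950; Spearman's rho = 0.85, permutation p = 0.000150), with 0.79 without the farthest 2. Nr1d2 moved with the other clock genes (Pearson's r = 0.86, permutation p = 0.000670, adjusted p = 0.0127; Spearman's rho = 0.82, permutation p = 0.000530; 0.76 without the farthest 2), and so did Nr1d1 (r = 0.79) and Per1 (r = 0.74). Dbp moved with endothelium markers (Pearson's r = 0.85, permutation p = 0.000620, adjusted p = 0.0127; Spearman's rho = 0.79, permutation p = 0.000820; 0.75 without the farthest 2). Ciart was lower where field CA1 markers were higher (Pearson's r = -0.84, permutation p = 0.00518, adjusted p = 0.0480; Spearman's rho = -0.63, permutation p = 0.0127; -0.63 without the farthest 2). For Arntl the list with the largest r was field CA3 (Pearson's r = 0.57, permutation p = 0.0120, adjusted p = 0.0729; Spearman's rho = 0.53, permutation p = 0.0214), which missed the threshold, as did astrocytes for Per2 (r = 0.63) and glucocorticoid-responsive genes for Per3 (r = 0.70). Per1 and the glucocorticoid-responsive genes gave Pearson's r = 0.72, permutation p = 0.0146, adjusted p = 0.0729; Spearman's rho = 0.55, permutation p = 0.0490, and 0.42 without the farthest 2, so that this relation rests on those libraries. The covariate setting above gives values with neocortex and field CA1 scores in the model, and the part of tissue content in the clock gene differences was not tested.

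**Figure D5:**
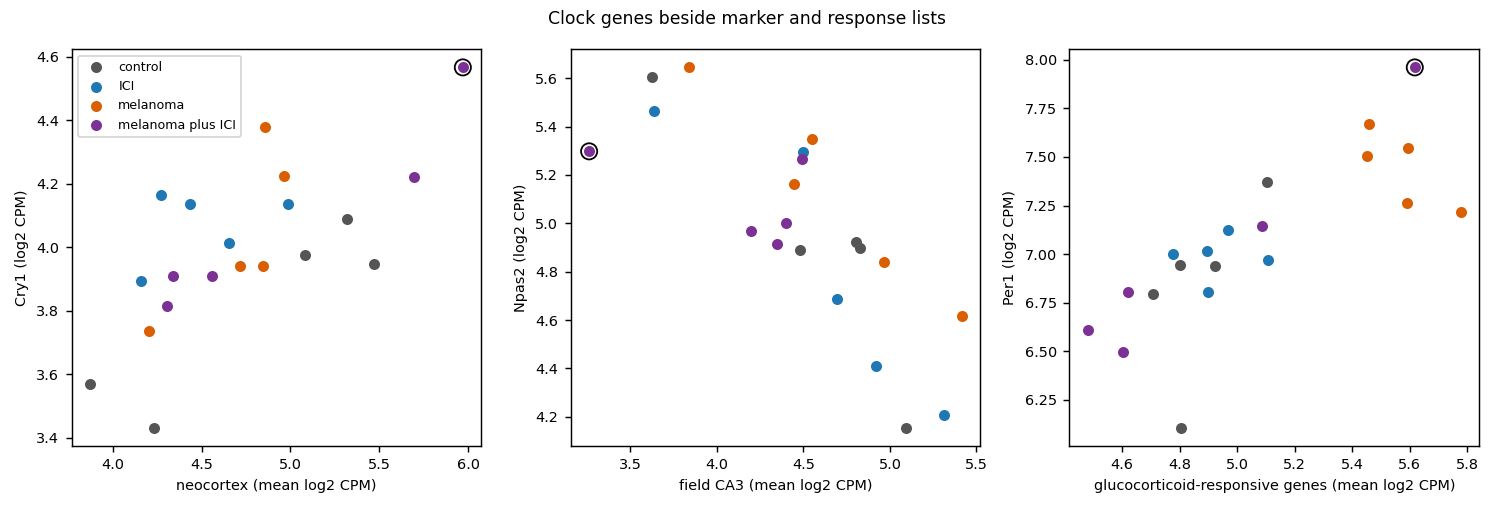
Level of Cry1, Npas2 and Per1 (vertical axes, log2 CPM) against the mean log2 CPM of 6 neocortex, 4 field CA3 and 13 glucocorticoid-responsive genes, with 1 point per library coloured by group and melanoma plus ICI replicate 3 ringed. Cry1 goes up and Npas2 goes down along the axis, and the 5 melanoma libraries and the ringed library lie at the right of the third panel.

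The genes whose pattern over 20 libraries was most like that of a clock gene were found by Pearson's r with group means removed, among 15465 other genes with a mean of at least 1 CPM. For Dbp they were Esam, an endothelial adhesion gene (r = 0.91), Phactr1 (0.87), Pdzph1 (0.86), Mapk12 (0.85) and Wdr76 (0.85), and the most opposite were Mbtps2, Nrp1 and Wdr11 (-0.90 to -0.89). Without melanoma plus ICI replicate 3 these r were 0.71 to 0.86 and -0.88 to -0.85. Ciart would stand at place 2 and Cry1 at place 3 in that order, and Nr1d2 at place 33. For Arntl they were Gm42864 (0.83), Egfem1 (0.78), Ppp1cc (0.78), Ccdc127 (0.76) and Bdnf (0.75), and the most opposite were Gm44769, Gm26848 and Kcnt1 (-0.80 to -0.76), with 0.71 to 0.83 and -0.77 to -0.71 without that library. For Per1 they were Arhgap11a (0.91), Usp7 (0.90), E330009J07Rik (0.88), Gm9899 (0.88) and Dync1li2 (0.87), and Per2 stood at place 42. Without that library the 5 r were 0.79 to 0.89.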

How the data were processed

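Bulk RNA of 1 frozen hippocampus per mouse was sequenced, and each of the 20 libraries was deposited as raw counts per gene. Per the file headers, the deposited counts carry gene coordinates, strand and exonic length for 49671 genes. Per the submitters' processing notes, STAR 2.5.2b and DESeq2 1.16.1 were used. The counting program, strand use, treatment of multi-mapping reads and annotation release are not given in the sources used here. The coordinates were compared with GENCODE M21 (GRCm38): 49412 identifiers occur in it, 45214 with the same span, among them all 10 clock genes.

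Sample titles gave the group and the replicate number. The clock genes, lists, tests and rules for naming genes were chosen with earlier results of these data known. The rules name all 10 clock genes, those with the smallest p or an unadjusted p under 0.05 per contrast, listed genes past the threshold (otherwise the one with the smallest p for any difference), the marker list with the largest r per clock gene, genes that overlap a clock gene, and the 5 most and 3 least similar genes to Arntl, Dbp and Per1.

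Tests used edgeR 4.0.16 in R 4.3.3: filterByExpr by group (minimum count 10, minimum total 15), TMM, a robust quasi-likelihood fit with 1 mean per group (16 residual degrees of freedom) and Benjamini-Hochberg over all genes. The script was tested on simulated data. Log2 CPM used a prior count of 2. Correlations used values centred on group means, and permutations within groups were drawn 100000 times, two-sided. For r without certain libraries the values were not centred again. DESeq2 1.42.0, limma 3.58.1 and other settings served as alternatives. Same-numbered libraries correlated between -0.35 and 0.53, and no pair of groups had all 5 over 0.1, so the numbers do not pair mice. Over all 190 pairs of libraries the chi-square per gene was 9.1 to 128, so no library was a copy of another. ICI replicate 5 and melanoma plus ICI replicate 1 carry the same library number in the labels, and theirs was 61.3. No library was left out. The genes most opposite to Per1 are not reported here.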

Additional observations from a re-analysis of the deposited data

Results flagged for a closer look

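Melanoma plus ICI replicate 3 lay far from the other 4 libraries of its group in 4 clock genes, by Dixon's ratio of the gap to the range at its 95% critical value of 0.71. Per2 was 99.1 CPM there and 34.1 to 47.1 CPM in the other 4. Per3 was 96.8 CPM, against 40.9 to 55.5. Dbp was 75.7 CPM, against 39.3 to 45. Ciart was 34.2 CPM, against 11.2 to 15.4. In all, 40 groups of 5 values were checked, of which chance flags about 1 in 20, and the 4 come from 1 library and are not independent. The same library had the highest neocortex score and the lowest field CA1 and dentate gyrus scores of 20, and the part of its tissue content in these values was not tested.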

How the results depend on the processing

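No clock gene passed the adjusted threshold in a comparison of groups with DESeq2 size factors, no filter on low counts, a replicate block, DESeq2, limma voom or 2 groups alone. Leaving out 1 library in turn gave 0 clock genes in every comparison of groups except melanoma plus ICI against melanoma, where it gave 0 to 1 (Ciart, without melanoma plus ICI replicate 3). With the neocortex and field CA1 covariates, 1 clock gene passed between melanoma plus ICI and melanoma mice and 2 in the interaction. With 3 libraries left out, 3 passed in each of these and 3 in the test for any difference. Both settings were chosen after seeing the data, and the cause of the change was not tested.

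Clock genes with a called slope on Dbp numbered 5 with limma voom, 4 with DESeq2, 1 with no group term, 0 with the covariates, 0 with 3 libraries left out and 0 to 7 with 1 library left out. All genes with such a slope numbered 427, and 258 with no filter, 240 with the replicate block, 992 with DESeq2, 709 with limma voom, 1 with no group term, 0 with the covariates, 0 with 3 libraries left out and 1 to 852 with 1 left out. DESeq2 gave 5 genes on the Arntl level. The slope of Per1 on Dbp was -0.187 with the covariates and -0.054 to 1.14 with 1 library left out, and that of Per3 was -0.154 to 0.903. Both negative ends came without melanoma plus ICI replicate 3.

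Over all genes, where the count was 0, any difference gave 25 with DESeq2, 6 with limma voom, 5 with the covariates, 34 with 3 libraries left out and 0 to 9 with 1 left out. ICI against control gave 1 with DESeq2. Melanoma against control gave 8 with DESeq2, 1 with limma voom, 3 with the 2 groups alone, 1 with the covariates, 4 with 3 libraries left out and 0 to 3 with 1 left out. Melanoma plus ICI against melanoma gave 25 with limma voom, 10 with the covariates, 45 with 3 libraries left out and 0 to 12 with 1 left out. Melanoma plus ICI against ICI gave 9 with DESeq2. The interaction gave 47 with DESeq2, 19 with limma voom, 11 with the covariates, 27 with 3 libraries left out and 0 to 11 with 1 left out.

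The replicate block did not change which clock genes were called: 0 between groups, and Ciart, Cry1 and Nr1d2 on the Dbp level. Labels give the groups the same replicate numbers, and these do not mark shared mice. Group means of clock genes moved by less than 1 SD with DESeq2 size factors or total counts.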
